A study of Mus musculus with 6 samples.

Results

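The endoplasmic reticulum (ER) translocation and N-glycan transfer machinery was followed as 46 protein-coding genes, out of 55414 gene identifiers counted in each library. The genes were chosen by symbol, with earlier results of these data known, and the rule uses no measured value: the Sec61 channel with Sec62, Sec63 and Tram1, the Ssr genes of the TRAP complex, the signal peptidase genes Spcs1 to Spcs3 and Sec11, the signal recognition particle (SRP) and its receptor, the oligosaccharyltransferase and the numbered Alg genes. One gene named in that rule was not analysed here. RNA-seq was made from adult mouse pancreatic acinar cells of 2 genotypes with 3 libraries each and no treatment. Controls were Pdx1Cre;Trip12+/+ and knockouts were Pdx1Cre;Trip12fl/fl, so both groups carried a Cre recombinase driven by the Pdx1 promoter, which is active in the progenitors of acinar, duct and islet cells. Trip12 encodes an E3 ubiquitin ligase. The libraries are labelled as biological replicates 1 to 3 of each genotype. The labels do not say whether a library came from 1 animal or a pool.

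Proteins bound for secretion are recognised at their signal sequence by SRP, handed to the SRP receptor on the ER membrane and threaded through the Sec61 channel. TRAP and TRAM1 help particular signal sequences to open the channel, the signal peptidase removes the signal sequence, and the oligosaccharyltransferase transfers to asparagine a glycan that the ALG enzymes have built on the lipid dolichol. Acinar cells use this route for the digestive enzymes, which are their main product.

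Upstream sequences of 3 of these genes are shown, Stt3a and Stt3b because the count ratio of these catalytic subunits was compared between genotypes, and Alg12 because it was the only one of the 36 genes searched with a complete ER stress response element. Each runs 5′ to 3′ over the 250 bases before the RefSeq transcription start, and all 3 lie on the minus strand of GRCm38.p6. Capitals mark CCACG, the part of the ER stress response element that follows its CCAAT box, and in Alg12 also the complete element, CCAAT followed after 9 bases by CCACG. The windows are chr15:88819319-88819568 for Alg12, chr9:36767623-36767872 for Stt3a and chr9:115310469-115310718 for Stt3b.
Alg12: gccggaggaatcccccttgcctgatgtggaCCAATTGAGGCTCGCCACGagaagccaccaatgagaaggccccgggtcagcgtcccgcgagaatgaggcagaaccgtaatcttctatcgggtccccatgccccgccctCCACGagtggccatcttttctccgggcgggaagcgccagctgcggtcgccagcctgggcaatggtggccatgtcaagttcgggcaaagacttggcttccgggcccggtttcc
Stt3a: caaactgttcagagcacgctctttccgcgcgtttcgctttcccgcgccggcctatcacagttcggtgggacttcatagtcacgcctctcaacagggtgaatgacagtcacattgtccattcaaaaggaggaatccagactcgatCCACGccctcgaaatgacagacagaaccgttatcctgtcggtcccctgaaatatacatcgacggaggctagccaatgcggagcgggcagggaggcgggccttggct
Stt3b: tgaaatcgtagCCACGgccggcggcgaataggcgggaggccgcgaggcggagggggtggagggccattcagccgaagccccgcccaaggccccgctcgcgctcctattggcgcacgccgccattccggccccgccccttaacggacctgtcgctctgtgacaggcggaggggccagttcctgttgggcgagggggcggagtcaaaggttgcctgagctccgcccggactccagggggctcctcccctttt

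RefSeq promoters, 300 bases each from 250 before to 50 after the start, were found for 36 of the 46 genes, and each motif was searched on both strands. The complete ER stress response element was present in 1 of the 36 genes (2.78%), against 0.137% of the 27025 genes with a promoter in the table. In Alg12, which encodes a lumenal mannosyltransferase, it began 220 bases before the start, and its CCACG is counted again in the shorter motif. CCACG alone was present in 20 of 36 genes (55.6%), against 35.5% of all genes, and in 16 of 36 (44.4%) against 31.0% when only the bases before the start were searched. The shares of all genes are not limited to genes expressed in these libraries, base composition was not matched, and the difference was not tested. The cyclic AMP response element TGACGTCA was found only in Alg13 (2.03% of all genes), after the start. No member held ER stress response element II (ATTGG, 1 base, CCACG), the unfolded protein response element TGACGTGG or the C/EBP-ATF response element (TGATG, 1 base, AAT), which were in 0.0444%, 0.714% and 1.08% of all genes. Levels here and throughout are CPM, counts scaled to a common library size by the trimmed mean of M values (TMM), which sets the scale from the bulk of genes. Alg12 itself lay at 2.83, 3.37 and 2.65 CPM in controls and 2.44, 2.23 and 3.41 CPM in knockouts, with overlapping groups.

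The 6 libraries held 31019500 to 34041901 counts in genes. Trip12, the targeted gene, had 29.0, 22.3 and 26.4 CPM in controls and 14.4, 14.7 and 13.0 in knockouts, a log2 fold change of -0.89 (SE 0.14, edgeR adjusted p = 0.0256), so every knockout library was below every control and none was near 0. Digestive enzymes, a list that here also named the non-enzyme genes Spink1, Sycn, Gp2, Cuzd1 and Zg16, took 80.9% to 83.6% of gene counts in controls and 77.5% to 78.0% in knockouts. The summed level of 10 acinar markers was 355307 to 474885 CPM in controls and 316779 to 330559 in knockouts, with no marker at 0. Summed markers of plasma and B cells, which include another secretory cell type, ranged from 83.8 to 227 in controls and from 108 to 249 in knockouts. Duct markers (202 to 243 against 189 to 283), islet markers (355 to 461 against 243 to 913), stroma and endothelium (34.3 to 146 against 44.1 to 164) and other leukocytes (21.3 to 82.7 against 17.6 to 70.1) also overlapped in their sums. Single markers nevertheless leaned higher in knockouts for some cell types. Of the tested leukocyte markers 7 of 8 had a log2 fold change above 0 (median 1.03, with 4 called higher only with the block). The same held for 8 of 9 islet markers (median 0.61, 1 called with the block) and 10 of 11 of stroma and endothelium (median 0.40, none called). Duct markers were above 0 in 5 of 8 (median 0.14, 3 called higher and 2 lower with the block). Plasma and B cell markers were above 0 in 4 of 8 (median -0.10, none called). Acinar markers were above 0 in 1 of 10 (median -0.43, 1 called higher and 2 lower with the block). Over all genes tested the block called 3.40% higher and 2.58% lower. The part of these cell types in the results was not tested. Xist and Y-linked counts showed control replicates 2 and 3 as female and the other 4 libraries as male. Control replicate 1 was thus the only male control. All values below for the 4 male libraries, or with sex as a covariate, therefore set the knockouts against control replicate 1 alone.

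A gene is called changed when its edgeR p, adjusted by Benjamini-Hochberg over the 13115 genes tested, is below 0.05. Of the 46 genes, 45 had enough counts to be tested. The exception was Srp54b, with 1 count in control replicate 3 and 0 in the other 5 libraries. Of the 75-base stretches of its transcript 99.1% occur in other genes, and multimapping reads were left out. In bulk RNA, fewer cells of a type and less RNA per cell cannot be told apart in any of the values that follow.

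Most of the machinery differed little between the genotypes, and the largest differences were lower levels of single subunits (Alg14, Ssr3, Tram1 and Stt3a). No gene of the 45 was called in either direction by edgeR, where 0.945% of all genes tested were called. At an unadjusted p below 0.05, 5 genes were lower (11.1%, against 8.27% of all genes) and none was higher (8.45% of all genes). limma-voom also called none (0.640% of all genes), while DESeq2 called 3 lower, namely Tram1, Ssr3 and Stt3a (2.56% of all genes). With the replicate number as a block in edgeR, 2 genes were called, both lower: Ssr3 and Tram1 (4.44% of the 45, against 2.58% of all genes). None was called higher in that fit (3.40% of all genes). Those blocked calls were lost when the replicate 1 pair or the replicate 2 pair was left out.

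Knockout and control values did not overlap for 10 genes (22.2%, against 22.9% of all genes in either direction). Of these, 9 were lower (20.0%, against 10.9% of all genes): Sec61g, Tram1, Ssr3, Ssr4, Alg14, Alg6, Stt3a, Spcs1 and Srp54c. The other was Ddost, which was higher. The median log2 fold change of the 45 genes was -0.15 beside 0.02 for all genes tested, and 35 of them (77.8%, against 47.6% of all genes) were below 0. These signs belong to the TMM scale: with plain library totals the median of all genes moved up to 0.43, the median of the 45 to 0.28, and only 4 of the 45 were below 0, so that the median of the 45 minus that of all genes was -0.17 with TMM and -0.15 with totals. That gap narrowed to -0.083 with sex as a covariate, -0.076 within the 4 male libraries and -0.059 without control replicate 2, where 27, 26 and 27 of the 45 were below 0. Without knockout replicate 1 it was -0.089, with 34 of the 45 below 0, and without control replicate 1 it widened to -0.26. With totals 1 gene was called, Sec11a, which was higher (log2 fold change 0.56, edgeR adjusted p = 0.0392, where 11.0% of all genes were called higher). In 31 of the 45 genes (68.9%, against 48.6% of all genes) the log2 fold change lay within 0.25 of 0.

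**Figure D1:**
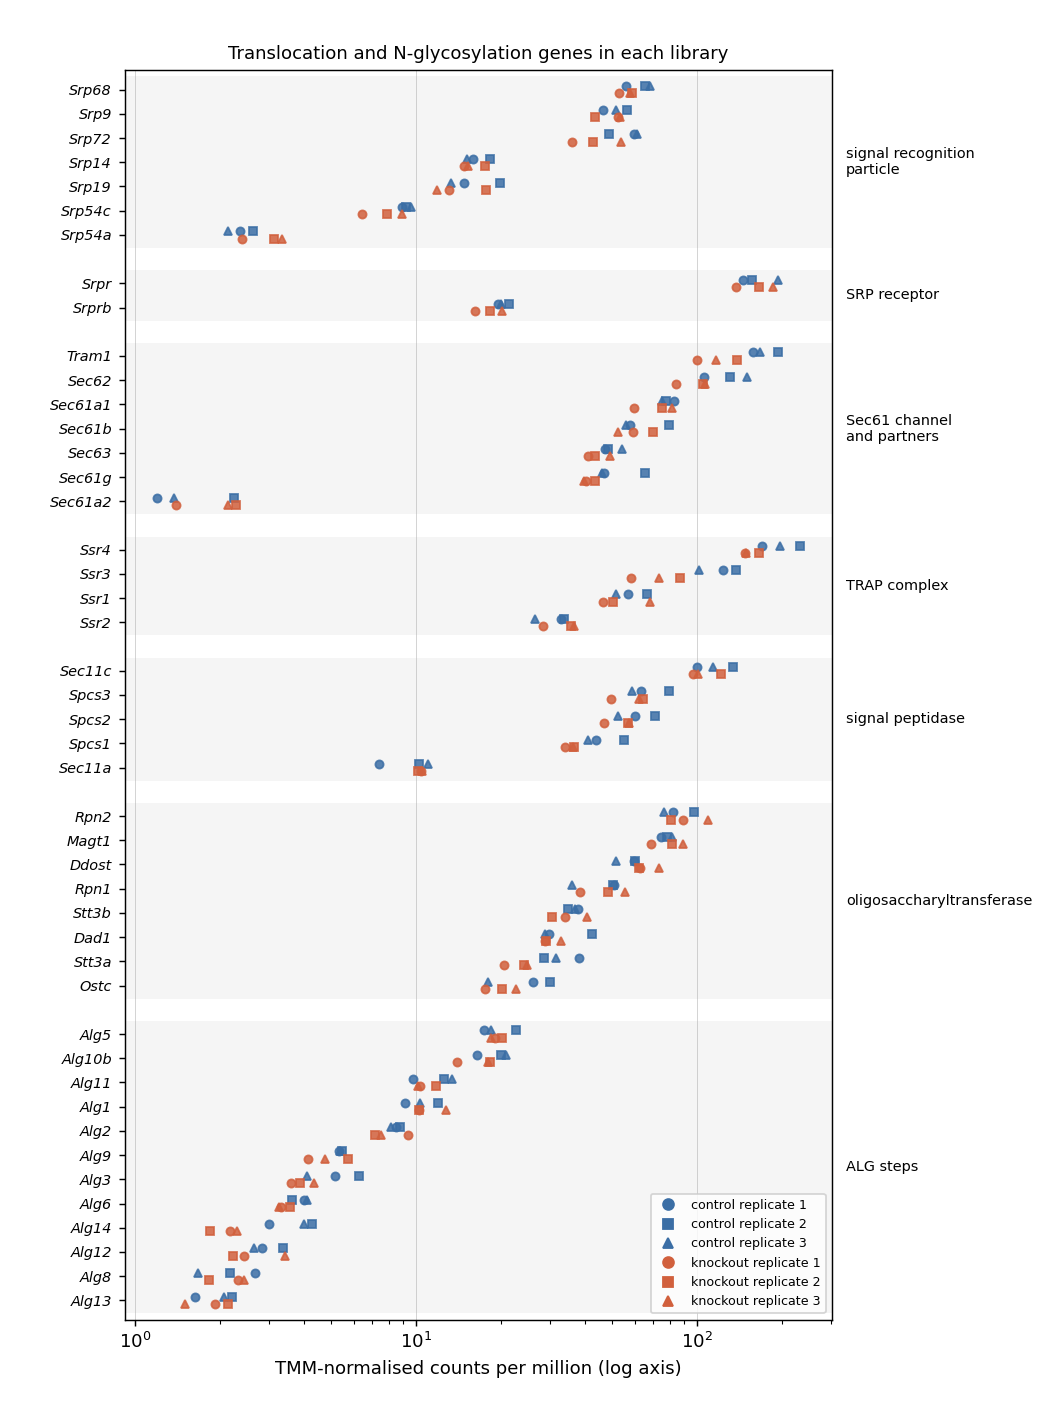
Level of each of the 45 tested genes in each library, in TMM-normalised CPM on a log axis, with genes ordered by mean level within their role. Control and knockout points overlap for most genes. The knockout points of Sec61g, Tram1, Ssr3, Ssr4, Alg14, Alg6, Stt3a, Spcs1 and Srp54c all lie to the left of the controls, and those of Ddost to the right.

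**Figure D2:**
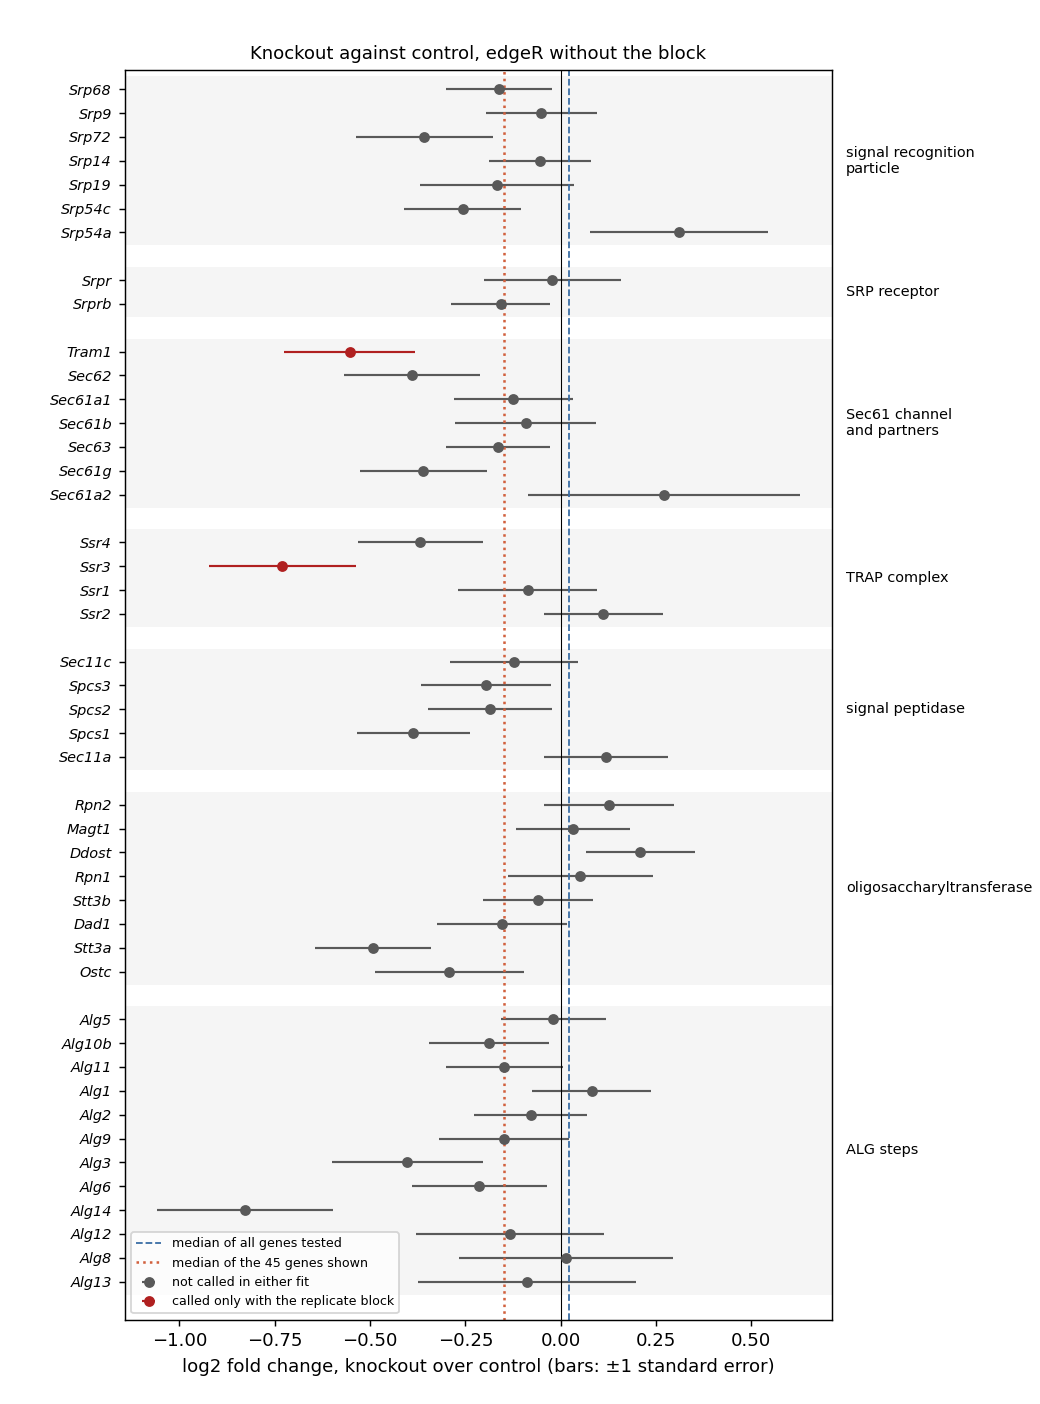
Log2 fold change of knockout over control for each gene, with bars of 1 standard error from edgeR without the replicate block. The dotted line is the median of the 45 genes (-0.15), the dashed line the median of all genes tested (0.02), and the red points, Ssr3 and Tram1, are the genes called with the block.

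Per kilobase of principal transcript, the controls expressed the members over a wide range. Ssr4, the delta subunit of TRAP, was the most abundant at 261 ± 40.4 CPM per kb (SD, n = 3). Sec11c, a catalytic subunit of the signal peptidase, followed at 135 ± 20.0 and Sec61b, the beta subunit of the channel, at 114 ± 23.3, and these 2 levels did not differ beyond their spread. Next came Spcs1 (66.2 ± 10.6), Tram1 (59.1 ± 6.33), Srpr (55.4 ± 8.37) and Ssr3 (40.9 ± 6.13), where neighbours again lay within each other's spread except Srpr and Ssr3. The order depends on the transcript used: over the union of all exons Ssr4 kept rank 1, while Sec11c moved to rank 13. The glycan-assembly genes were low, with Alg5 at 13.3 ± 1.89 and the other 11 between 1.07 and 5.97. Sec61a2 (0.659 ± 0.232) and Srp54a (0.529 ± 0.0539) were the lowest genes tested. The Srp54a level can be too low, because 73.3% of the 75-base stretches of its transcript occur in other genes.

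SRP recognises the signal sequence as it leaves the ribosome. Its 7 tested genes had a median log2 fold change of -0.16 and none was called. Srp9, part of the domain that slows translation and the SRP gene with the highest level per length, had 46.4, 56.6 and 51.3 CPM in controls and 52.2, 43.5 and 53.2 in knockouts (log2 fold change -0.05, SE 0.15, edgeR adjusted p = 0.910), and the groups overlapped throughout. Srp72, which with Srp68 forms the large heterodimer of the particle, had the widest difference of the group. It lay at 59.7, 48.8 and 61.3 in controls and 36.0, 42.6 and 53.8 in knockouts, lower in every numbered pair but with knockout replicate 3 above control replicate 2 (log2 fold change -0.36, SE 0.18, edgeR adjusted p = 0.364). Srp68 (63.1 ± 6.26 to 56.4 ± 3.05), Srp19 and Srp14 had overlapping groups.

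Mice carry several near-identical copies of the gene for SRP54, the subunit that binds the signal sequence. Srp54c had 8.95, 9.24 and 9.56 CPM in controls and 6.43, 7.88 and 8.90 in knockouts, all 3 knockouts being lower. Srp54a had 2.36, 2.63 and 2.14 in controls and 2.41, 3.11 and 3.33 in knockouts, with knockouts at the higher end. The count ratio of Srp54c to Srp54a was therefore 3.92 ± 0.485 in controls and 2.63 ± 0.0810 in knockouts without overlap. In an exact two-sided permutation test its p was 0.1, the smallest that 3 against 3 libraries can give, and 0.2 adjusted over the 4 paralog pairs compared here. Of the 75-base stretches of the Srp54c transcript 91.7% occur in other genes, of Srp54a 73.3% and of Srp54b 99.1%. Multimapping reads were left out, so the levels of these copies can be too low and their ratio is uncertain.

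The SRP receptor is a heterodimer. Srpr, its alpha subunit, had 146, 157 and 194 CPM in controls and 137, 166 and 187 in knockouts (log2 fold change -0.02, SE 0.18, edgeR adjusted p = 0.967). Srprb, the membrane-anchored beta subunit, had 19.5, 21.4 and 20.1 in controls and 16.2, 18.3 and 20.2 in knockouts (log2 fold change -0.16, SE 0.13, edgeR adjusted p = 0.610). Both genes overlapped between groups. Their exons overlap those of neighbouring genes, as in 17 of the 46 genes (14 of them with genes on the opposite strand only). Unstranded counts do not separate such neighbours, and reads ambiguous between genes were left out, so these levels can be too low.

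At the channel, Tram1 differed most. TRAM1 is the membrane protein that stands next to the channel as signal sequences enter. Tram1 had 159, 195 and 168 CPM in controls and 99.7, 138 and 117 in knockouts, so the highest knockout lay below the lowest control and the knockout mean was 68.2% of the control mean. Its log2 fold change was -0.55 (SE 0.17, edgeR adjusted p = 0.164), and -0.56 with the replicate block (SE 0.15, adjusted p = 0.0491). The numbered pairs gave log2 ratios of -0.67, -0.49 and -0.52. Within the 4 male libraries the value was -0.40, and with plain library totals it was -0.13, below the other genes' median of 0.43 on that scale. As a share of the counts of the 7 channel genes, which does not depend on scaling, Tram1 took 31.6% ± 1.04 in controls and 27.0% ± 1.69 in knockouts, without overlap.

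The subunits of the channel itself differed less than Tram1, and of these Sec61g alone was lower in all 3 knockouts. Sec61b had 57.8, 79.5 and 55.9 CPM in controls and 59.1, 69.9 and 52.3 in knockouts (log2 fold change -0.09, SE 0.18, edgeR adjusted p = 0.869), and the groups overlapped. Of the 75-base stretches of its transcript 23.9% also occur in other genes, so its count is uncertain to that extent. Sec61g, the gamma subunit, had 46.7, 65.5 and 46.1 in controls and 40.2, 43.5 and 39.6 in knockouts (edgeR adjusted p = 0.325), lower in all 3 knockouts, with control replicate 2 apart from the other controls. Sec61a1, which encodes the pore-forming alpha subunit, overlapped at 78.5 ± 3.77 and 72.0 ± 11.0. Sec62 (129 ± 22.5 to 98.7 ± 12.6) and Sec63 (49.8 ± 3.91 to 44.4 ± 4.0), whose products serve post-translational translocation, were lower in every numbered pair but their groups overlapped. The ratio of Sec61a1 to its rare paralog Sec61a2 was 52.6 ± 17.5 in controls and 37.9 ± 5.03 in knockouts (exact permutation p = 0.3). Sec61a2 had only 38 to 80 counts per library. Stretches of 75 bases also found in other genes made up 35.2% of Sec61a2, 13.1% of Sec61a1 and 19.4% of Sec61g. Their counts and this ratio are uncertain to that extent.

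TRAP is a complex of 4 membrane proteins that associates with the channel. None of its genes was called without the block, and differences between its subunits were not tested. Ssr3, the gamma subunit, had 124, 138 and 102 CPM in controls and 58.1, 87.3 and 73.4 in knockouts. All 3 knockouts were below the lowest control and their mean was 60.3% of the control mean. The log2 fold change was -0.73 (SE 0.19, edgeR adjusted p = 0.122), and -0.74 with the replicate block (SE 0.16, adjusted p = 0.0222). The numbered pairs gave -1.09, -0.66 and -0.47. The value was -0.33 with plain library totals. It was -0.74 within the 4 male libraries and -0.76 with sex as a covariate, both against control replicate 1 alone. DESeq2 called Ssr3 at -0.75 (adjusted p = 0.00380). None of the 75-base stretches of its transcript occurs in another gene.

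Ssr4 had 171, 232 and 197 CPM in controls and 148, 167 and 150 in knockouts, lower in all 3 knockouts (log2 fold change -0.37, SE 0.16, edgeR adjusted p = 0.304). Ssr4 is on the X chromosome, and within the male libraries its value was -0.12. Ssr1, the alpha subunit, averaged 58.1 ± 7.58 and 54.8 ± 11.5, and Ssr2, the beta subunit, 31.0 ± 3.85 and 33.5 ± 4.59, with overlapping groups in both. Within the complex, Ssr3 supplied 32.2%, 29.3% and 27.0% of TRAP counts in controls and 20.7%, 25.7% and 22.4% in knockouts. Ssr2 supplied 8.52%, 7.16% and 7.06% in controls and 10.0%, 10.5% and 11.2% in knockouts, and Ssr1 14.2% ± 0.575 and 17.3% ± 3.05. The Ssr3 share was lower and the Ssr1 and Ssr2 shares higher in every knockout than in any control, for Ssr1 by a narrow margin, while the Ssr4 share overlapped (48.7% ± 3.95 and 49.2% ± 3.57). Because shares of a complex add up to the whole, a lower share of 1 subunit raises the others.

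**Figure D3:**
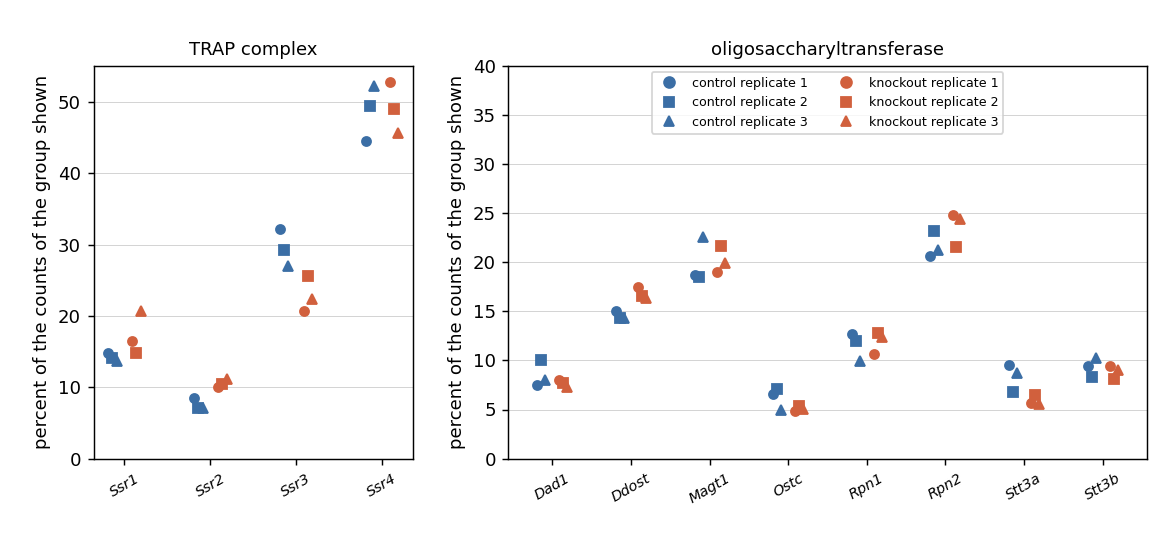
Percent of the counts of the TRAP complex (left) and of the oligosaccharyltransferase (right) that each gene supplied in each library, with 1 point per library. Ssr3 and Stt3a lie lower in all 3 knockouts, Ssr1, Ssr2 and Ddost lie higher, and the other genes overlap.

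The signal peptidase cuts the signal sequence off in the ER lumen. Spcs1, a small accessory subunit, had 43.6, 54.9 and 40.9 CPM in controls and 34.0, 36.4 and 36.3 in knockouts, lower in all 3 (log2 fold change -0.39, SE 0.15, edgeR adjusted p = 0.244). Its share of the complex was 15.5% ± 0.613 in controls and 13.5% ± 0.875 in knockouts, again without overlap. Sec11c, the main catalytic subunit here, had 99.9, 134 and 114 in controls and 96.8, 122 and 101 in knockouts (log2 fold change -0.12, SE 0.17, edgeR adjusted p = 0.790), with overlapping groups. Its paralog Sec11a was at 9.56 ± 1.91 and 10.4 ± 0.156, and the Sec11c to Sec11a ratio was 12.3 ± 1.73 and 10.3 ± 1.45 (exact permutation p = 0.2). Spcs2 and Spcs3 had log2 fold changes of -0.19 and -0.20 and overlapping groups.

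The oligosaccharyltransferase exists in 2 forms, one built on the catalytic subunit STT3A, which works at the translocation channel, and one on STT3B, which can act on proteins after translocation. Stt3a had 38.0, 28.5 and 31.4 CPM in controls and 20.5, 24.2 and 24.9 in knockouts, so all 3 knockouts were below the lowest control. The log2 fold change was -0.49 (SE 0.15, edgeR adjusted p = 0.162), -0.49 with the replicate block (adjusted p = 0.0859), and -0.51 in DESeq2, which called it (adjusted p = 0.0457) only without the block. Within the male libraries it was -0.69, and with plain library totals it was -0.10. Stt3b had 37.7, 34.9 and 36.8 in controls and 33.9, 30.4 and 40.6 in knockouts (log2 fold change -0.06, SE 0.14, edgeR adjusted p = 0.892), with the knockouts on both sides of the controls.

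The ratio of Stt3a to Stt3b counts, free of library scaling, was 1.01, 0.816 and 0.855 in controls and 0.605, 0.796 and 0.612 in knockouts. The groups did not overlap, although knockout replicate 2 nearly reached control replicate 2, and the means were 0.893 ± 0.101 and 0.671 ± 0.108. The exact two-sided permutation p was 0.1, the smallest possible here, and 0.2 adjusted over the 4 paralog pairs. Neither transcript shares a 75-base stretch with another gene.

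Rpn2, a ribophorin and the subunit gene with the highest level per length, had 82.1, 97.6 and 76.4 CPM in controls and 89.2, 81.0 and 109 in knockouts (log2 fold change 0.13, SE 0.17, edgeR adjusted p = 0.781), with overlap. Ddost, whose product OST48 is a core subunit of both forms, had 59.9, 60.1 and 51.5 in controls and 62.7, 62.3 and 73.3 in knockouts, every knockout being higher (log2 fold change 0.21, SE 0.14, edgeR adjusted p = 0.518). Its share of the enzyme's counts was 14.5% ± 0.435 and 16.8% ± 0.575, while that of Stt3a was 8.34% ± 1.43 and 5.89% ± 0.468, both without overlap. Ostc, which belongs to the STT3A form, averaged 24.7 ± 6.09 and 20.2 ± 2.51 with overlap, and Magt1, an oxidoreductase of the STT3B form, 77.9 ± 3.46 and 79.7 ± 10.5. Rpn1 and Dad1 also overlapped. The median log2 fold change of the 8 genes was -0.01, the nearest to 0 among the 7 roles.

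The ALG enzymes build the glycan sugar by sugar on dolichol. Their 12 genes had a median log2 fold change of -0.14, and 10 lay within 0.25 of 0. Alg14, the membrane subunit that with Alg13 adds the second N-acetylglucosamine, had the largest difference of all 45 genes. It was at 2.99, 4.27 and 4.0 CPM in controls and 2.17, 1.86 and 2.31 in knockouts, lower in all 3 (log2 fold change -0.83, SE 0.23, edgeR adjusted p = 0.133; with the block -0.82, adjusted p = 0.0684). Within the male libraries the value was -0.48. Its share of ALG counts was 3.94% ± 0.392 and 2.43% ± 0.298. Its partner Alg13 was at 1.98 ± 0.302 and 1.86 ± 0.326, with overlap.

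Alg5, which makes the dolichol-linked glucose donor, had 17.4, 22.7 and 18.5 CPM in controls and 19.1, 20.2 and 18.5 in knockouts (log2 fold change -0.02, SE 0.14, edgeR adjusted p = 0.964). Alg6, the first of the glucosyltransferases, was at 3.91 ± 0.259 and 3.37 ± 0.174 without overlap (log2 fold change -0.21, edgeR adjusted p = 0.610). Alg8 and Alg10b, the other glucosyltransferases, overlapped, as did the mannosyltransferase genes Alg1, Alg2, Alg3, Alg9, Alg11 and Alg12. Of these Alg3 had the largest difference, at 5.19 ± 1.09 and 3.92 ± 0.368 (log2 fold change -0.40, edgeR adjusted p = 0.354).

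The share of the transcriptome taken by the machinery depended on what it was measured against. The 46 genes took 0.204%, 0.184% and 0.169% of gene counts in controls and 0.200%, 0.218% and 0.231% in knockouts (0.186% ± 0.0176 and 0.216% ± 0.0155), with overlap. Counting error was small beside that spread, with a 95% Clopper-Pearson interval of 0.168% to 0.171% for the lowest library. Outside the digestive enzyme counts the order turned, at 1.05% ± 0.0843 in controls and 0.971% ± 0.0665 in knockouts, again with overlap. Per 1000 digestive enzyme counts there were 2.53, 2.20 and 2.06 machinery counts in controls and 2.57, 2.79 and 2.98 in knockouts, higher in all 3 knockouts by a ratio of means of 1.23. On the TMM scale the sign was the opposite: the summed level of the 46 genes was 2013, 2342 and 2096 CPM in controls and 1678, 1949 and 1991 CPM in knockouts, lower in all 3 knockouts by a ratio of means of 0.871. The digestive enzyme share itself was lower in all 3 knockouts, and its part in these measures was not tested further.

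**Figure D4:**
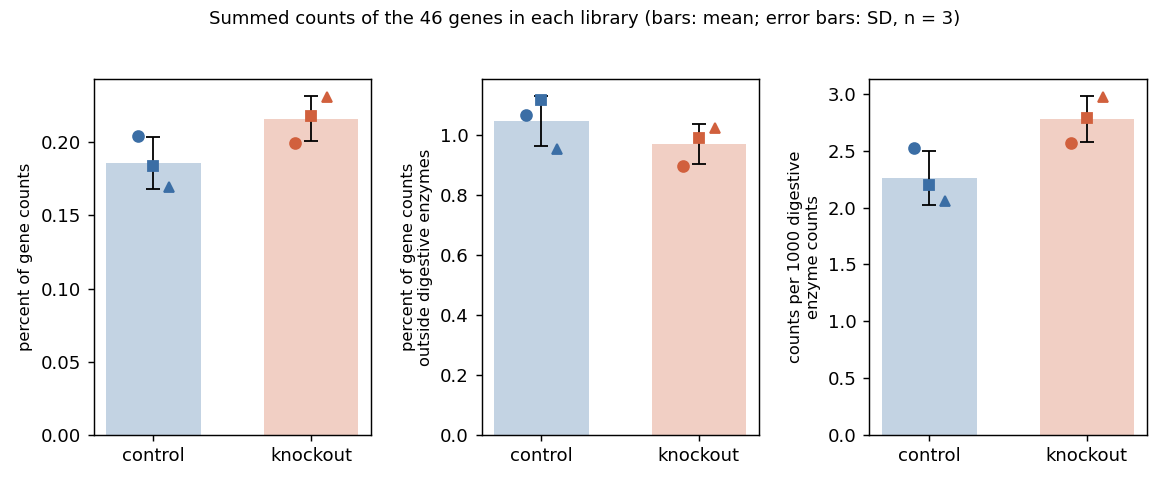
Summed counts of the 46 genes as a percent of gene counts (left), as a percent of gene counts outside digestive enzymes (middle) and per 1000 digestive enzyme counts (right). Bars are means and error bars SD over 3 libraries, with a circle, square and triangle for replicates 1, 2 and 3; of the 3 panels the groups separate only in the right one (2.26 ± 0.240 and 2.78 ± 0.203).

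Other genes of the route, taken from lists, gave 0 calls among the 86 tested in edgeR without the block (0.945% of all genes). At an unadjusted p below 0.05, 7 of the 86 were higher and 4 lower, no larger a share than the 8.45% and 8.27% of all genes. The 23 tested genes of further oligosaccharyltransferase and dolichol steps had a median log2 fold change of -0.08 and the 16 partners of the translocon -0.07. Further medians were 0.03 for 17 genes of tail-anchor and ER membrane insertion, -0.05 for 14 of glycan trimming and lectin chaperones, and 0.19 for 16 regulators of the unfolded protein response. With the block, 1 was called higher and 1 lower (3.40% and 2.58% of all genes). Ern1, which encodes the ER stress sensor IRE1 alpha, had 29.3, 30.6 and 32.5 CPM in controls and 42.6, 47.2 and 59.4 in knockouts, higher in all 3 (log2 fold change 0.69, SE 0.16, edgeR adjusted p = 0.0788; with the block 0.68, adjusted p = 0.0160). Emc2, a subunit of the ER membrane protein complex, had 9.48, 11.8 and 9.67 in controls and 6.19, 7.22 and 7.48 in knockouts, lower in all 3 (log2 fold change -0.57, SE 0.15, edgeR adjusted p = 0.122; with the block -0.57, adjusted p = 0.0468). DESeq2 also called Ern1, and called Gmppa and Dpagt1, both from the list of further oligosaccharyltransferase and dolichol steps, as lower. Over all genes DESeq2 called 2.56% lower and 259 genes higher.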

How the data were processed

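The authors deposited raw read counts per gene for 6 poly-A libraries, unstranded and per strand, in the layout that STAR writes. The submitters' processing notes name STAR 2.7.10a and the builds GRCm39 and mm39, and the annotation is not given in the sources used here. Unstranded counts were used, because the library protocol in the labels has no strand step and the forward strand held 50.1% to 50.3% of stranded counts. Rows that name no gene (unmapped, multimapping, no feature, ambiguous) were left out. They held 43.5% to 45.7% of all reads in controls and 36.9% to 41.1% in knockouts, of which multimapping reads were 26.0% to 28.4% and 21.6% to 24.1% of all reads. Symbols and transcript lengths came from GENCODE M21 (GRCm38), which matched 94.0% of identifiers and at least 99.8% of counts, and promoters came from RefSeq GRCm38.p6. No gene coordinates were converted.

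The counts were tested with edgeR 4.0.16 in R 4.3.3 (TMM, filterByExpr, robust quasi-likelihood F test), with limma 3.58.1 (voom) and DESeq2 1.42.0 as alternatives, and p-values were adjusted by Benjamini-Hochberg over all genes tested. Levels per library are CPM after TMM scaling. The fit was tested on simulated data. The labels do not say whether same-numbered control and knockout libraries belong together. Their deviations from the group means went together (r = 0.63, 0.45 and 0.28, other pairs -0.50 to 0.21), and replicate numbers were taken as pairs on that ground. Those correlations come from the same data as the blocked p-values, which therefore depend on a pairing that was not established independently. The blocked fit is given where it changes a call. No library pair agreed within sampling noise.

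Genes with values for every library are those called with or without the block and, in each role, the gene with the highest level per length and the gene with the largest fold change; Alg12, Ddost, Sec61g, Srp54a, Srp54c and Stt3b were added after their values were seen. The genes and lists were chosen with earlier results of these data known. Blocked fits under other settings and the male libraries alone were alternatives chosen after seeing the data.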

Additional observations from a re-analysis of the deposited data

Results flagged for a closer look

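Mapped reads assigned to no gene (no feature), a part of the deposited data that no comparison above uses, were more frequent in knockouts. They made up 1.08% ± 0.216 of all reads in controls (SD, n = 3, 0.893% to 1.32%) and 2.01% ± 0.151 in knockouts (1.90% to 2.18%), so every knockout library lay above every control. Such reads add nothing to the counts of the 46 genes, and whether they lay in introns or between genes was not tested.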

How the results depend on the processing

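No library left out singly gave a call among the 45 genes (0 to 0), while the calls among all genes, 124 in edgeR without the block, ranged from 20 to 461, and those among other genes of the route from 0 to 1. Calls among all genes, the 45 genes and the other genes of the route came to 1519, 1 and 13 with library totals, to 850, 1 and 2 with no filter on low counts (the 1 being Ssr3, adjusted p = 0.00823), to 594, 3 and 3 with DESeq2, and to 785, 2 and 2 with the replicate block. A minimum of 10 counts in every library gave 210 calls among all genes and 1 (Ern1) among the other genes of the route, and forward-strand counts also gave 1 there. Sex as a covariate left 21 calls among all genes and the male libraries alone 18. The median of the 45 genes was 0.28 with library totals, and -0.22 to -0.06 with single libraries left out.

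With the block, leaving out a numbered pair gave 0 to 3 calls (Ssr3, Tram1 and Ostc without replicate 3). Over all genes those fits gave 100 to 832 calls. Library totals with the block in edgeR replaced Ssr3 (-0.32, adjusted p = 0.208) and Tram1 (-0.14, adjusted p = 0.481) by Rpn2, Ddost and Sec11a, all higher. In that fit 3124 of the 13115 genes tested were called higher. The other blocked fits (RLE or upper-quartile factors, enzymes left out of library sizes, DESeq2, limma-voom) gave 2 calls each, Ssr3 and Tram1. Their calls over all genes ranged from 689 to 841. In edgeR with TMM the block changed no other call among the 45 genes. In DESeq2 the call of Stt3a was lost with the block.

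Signs reversed with library totals for Srpr (0.40), Srprb (0.26), Sec61b (0.33), Ssr4 (0.060), Alg5 (0.41), Sec11c (0.30), Spcs1 (0.033), Srp72 (0.044) and Srp9 (0.38), where all genes shifted upward. With sex as a covariate they reversed for Srpr (0.16), Sec61b (0.065), Alg5 (0.15), Sec11c (0.094) and Srp9 (0.096), and within male libraries for the same genes (0.18, 0.083, 0.17, 0.11 and 0.11). Leaving out single libraries moved Srpr between -0.13 and 0.11, Sec61b between -0.21 and 0.088, Alg5 between -0.12 and 0.10, Srp9 between -0.14 and 0.032, and Rpn2 between -0.0066 and 0.23. None of these was called, and the cause was not tested. The knockout minus control share of gene counts was 0.0303 percentage points, 0.0221 to 0.0396 with single libraries left out and -0.0766 outside digestive enzymes. Searching CCACG alone in place of the complete element raised the share of genes with a match from 2.78% to 55.6%. The planned comparison of paralog protein sequences was not run.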
